A study of Mus musculus with 8 samples.

Results

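The interferon-inducible GTPases described here are 10 genes taken by symbol from a count table of 55376 genes. They are the guanylate-binding protein genes Gbp2, Gbp3, Gbp5, Gbp6, Gbp7 and Gbp9 and the immunity-related GTPase genes Igtp, Irgm1, Irgm2 and Iigp1. The genes were chosen by name with earlier results of these data known, so their counts describe a chosen set. All 10 were found and all 10 passed the filter on low counts, which left 13721 genes. They were measured by RNA sequencing in macrophages grown from the marrow of 13-week-old male mice in M-CSF at 50 ng/mL. The groups were DNMT3A-HET (HET) macrophages given IL-6 at 10 ng/mL on day 6 for 2 days, HET controls without IL-6, wild-type (WT) macrophages given IL-6 in the same way, and WT controls, all collected on day 8. Each group had 2 libraries. Marrow came from 3 mice of each genotype, and the labels do not tie libraries to mice, so a p-value reflects how far these libraries scatter, and some of that scatter may be technical. The series title names a hematologic reduction of DNMT3A, and what kind of allele the HET mice carried is not given in the sources used here.

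Guanylate-binding proteins (GBPs) and immunity-related GTPases (IRGs) are among the most strongly induced proteins of macrophages exposed to interferon-gamma, and type I interferons induce many of them too. They bind the membranes of vacuoles that hold parasites or bacteria, and of bacteria free in the cytosol, and help to break them open and to alert inflammasomes. Interferon-gamma is known to act through gamma-activated sites in its target promoters, and type I interferon through interferon-stimulated response elements, to which complexes with STAT2 and IRF9 bind; IRF1 binds response elements as well. IL-6 signals through the gp130 receptor chain, JAK kinases and mainly STAT3. IRGs fall into effectors such as Iigp1, which load onto vacuoles, and regulators (Irgm1, Irgm2 and Igtp), which sit on the cell's own membranes and keep effectors inactive there.

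Promoter sequence was used for 7 members, as windows of RefSeq (assembly GRCm38.p6) from 250 bases before to 50 bases after an annotated start. Gbp6, Gbp9 and Iigp1 are named only. The bases just upstream of the start are printed because members of both families moved together and because these sequences hold the element classes through which interferon is known to act. Each is written in the direction of transcription, with capitals for matches to the response element core (GAAA, any 2 bases, GAAA) on either strand and to the gamma-activated site (TTC, any 3 bases, GAA), which reads the same on both strands. On the opposite strand the core appears as its reverse complement. The stretches are chr3:142496754-142496933 (+) for Gbp5, chr3:142530216-142530335 (+) for Gbp7, chr3:142559924-142560043 (+) for Gbp3, chr3:142620543-142620662 (+) for Gbp2, chr11:48871421-48871540 (-) for Irgm1, chr11:58199436-58199555 (+) for Igtp and chr11:58214857-58214976 (+) for Irgm2.
Gbp5: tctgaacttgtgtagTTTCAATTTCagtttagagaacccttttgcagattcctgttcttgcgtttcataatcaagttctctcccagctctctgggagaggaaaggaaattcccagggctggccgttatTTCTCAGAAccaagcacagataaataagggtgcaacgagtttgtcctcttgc
Gbp7: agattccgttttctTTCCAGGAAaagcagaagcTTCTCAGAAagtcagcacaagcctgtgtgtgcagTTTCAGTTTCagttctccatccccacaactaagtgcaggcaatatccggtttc
Gbp3: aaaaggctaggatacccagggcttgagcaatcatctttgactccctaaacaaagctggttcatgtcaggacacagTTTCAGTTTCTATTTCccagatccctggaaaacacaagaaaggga
Gbp2: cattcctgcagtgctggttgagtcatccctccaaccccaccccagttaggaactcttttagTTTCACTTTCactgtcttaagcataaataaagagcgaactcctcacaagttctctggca
Irgm1: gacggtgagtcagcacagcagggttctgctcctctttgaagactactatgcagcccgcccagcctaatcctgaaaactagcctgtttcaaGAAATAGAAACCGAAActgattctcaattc
Igtp: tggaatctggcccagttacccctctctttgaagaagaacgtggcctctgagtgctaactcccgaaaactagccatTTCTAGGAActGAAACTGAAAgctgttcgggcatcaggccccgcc
Irgm2: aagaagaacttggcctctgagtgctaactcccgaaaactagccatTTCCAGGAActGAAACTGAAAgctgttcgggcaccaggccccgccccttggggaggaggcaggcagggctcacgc

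The core was found in 7 of the 7 members whose windows were used, and in 3.44% of all 32851 promoter windows of that length. The gamma-activated site was found in Gbp5, Gbp7, Igtp and Irgm2, and in 8.3% of all windows, and these 4 members held both elements, as 0.454% of windows did. In Gbp3 and Irgm1 there were 2 cores that overlap each other. A further window of Gbp3, at another annotated start, held neither element. Gbp5 had its core farthest from the start, at bases -165 to -156, and a gamma-activated site outside the printed stretch at -245 to -237. The other members had their core between 64 and 15 bases before the start. Igtp and Irgm2, which neighbour each other on chromosome 11, carried the site and the core 2 bases apart in the same order. Aligned on the site without gaps, 87 of 90 bases of their printed stretches were identical (96.67%). Over all bases upstream of both starts it was 134 of 220 bases (60.91%) in the same alignment. As gaps were not allowed, an inserted or missing base farther upstream would lower this second share. A match is a description of letters and says nothing of whether a factor was bound.

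**Figure D1:**
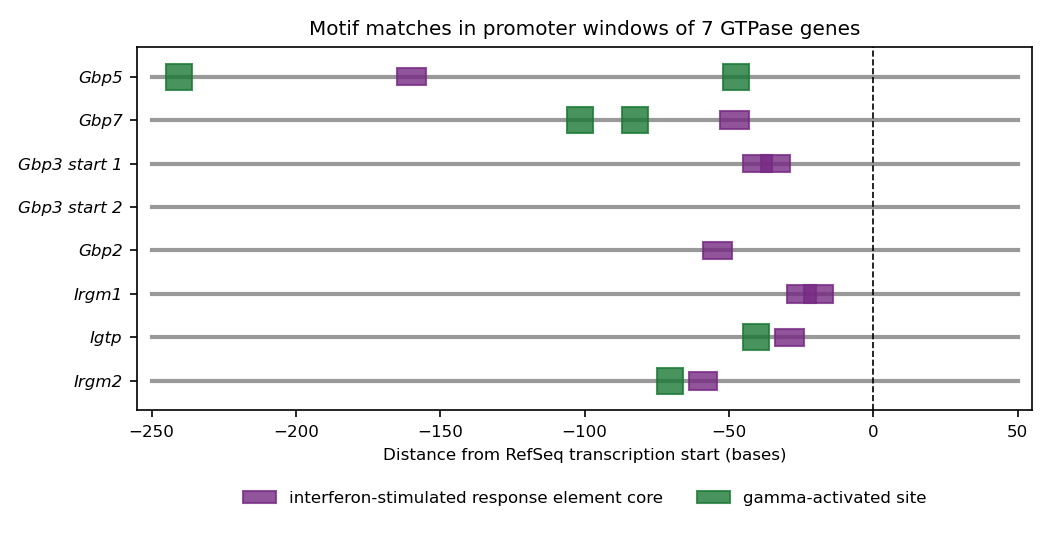
Positions of motif matches in 8 promoter windows of 7 GTPase genes, with distance from the RefSeq transcription start in bases on the x axis and 1 line per window; purple boxes are response element cores and green boxes gamma-activated sites. Cores lie within 64 bases of the start except in Gbp5, where the core begins 165 bases before it, and the second start of Gbp3 has no match.

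In HET and in WT macrophages, the summed signal of the 10 genes was lower with IL-6. Expression is given as CPM, each gene's share of a library's counts on a common scale, with totals corrected for composition by TMM. The sum was 226 to 238 CPM in HET IL-6 libraries and 428 to 479 CPM in HET control libraries, and it was 244 to 257 CPM in WT IL-6 libraries and 448 to 482 CPM in WT control libraries. By edgeR's quasi-likelihood test, with a call at an adjusted p under 0.05, IL-6 lowered 10 of the 10 genes in HET, where 9.41% of all tested genes were called lower, and 9 of 10 in WT, where 10.4% were. Averaged over genotype 10 of 10 fell, against 12.8% of all genes, and no member was called higher in these comparisons. The median log2 fold change of the members was -0.99 in HET, -0.86 in WT and -0.90 averaged, beside 0.01, -0.01 and -0.01 for all tested genes. For 9 members, all but Gbp5, each of the 4 IL-6 libraries was below each of the 4 control libraries, which was so for 8.42% of tested genes. Of all genes called in the averaged comparison 45.8% were higher, or 34.8% when libraries were scaled to total counts, and 10 members were called lower under either scaling. In bulk RNA, fewer cells of a type and less RNA per cell cannot be told apart.

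**Figure D2:**
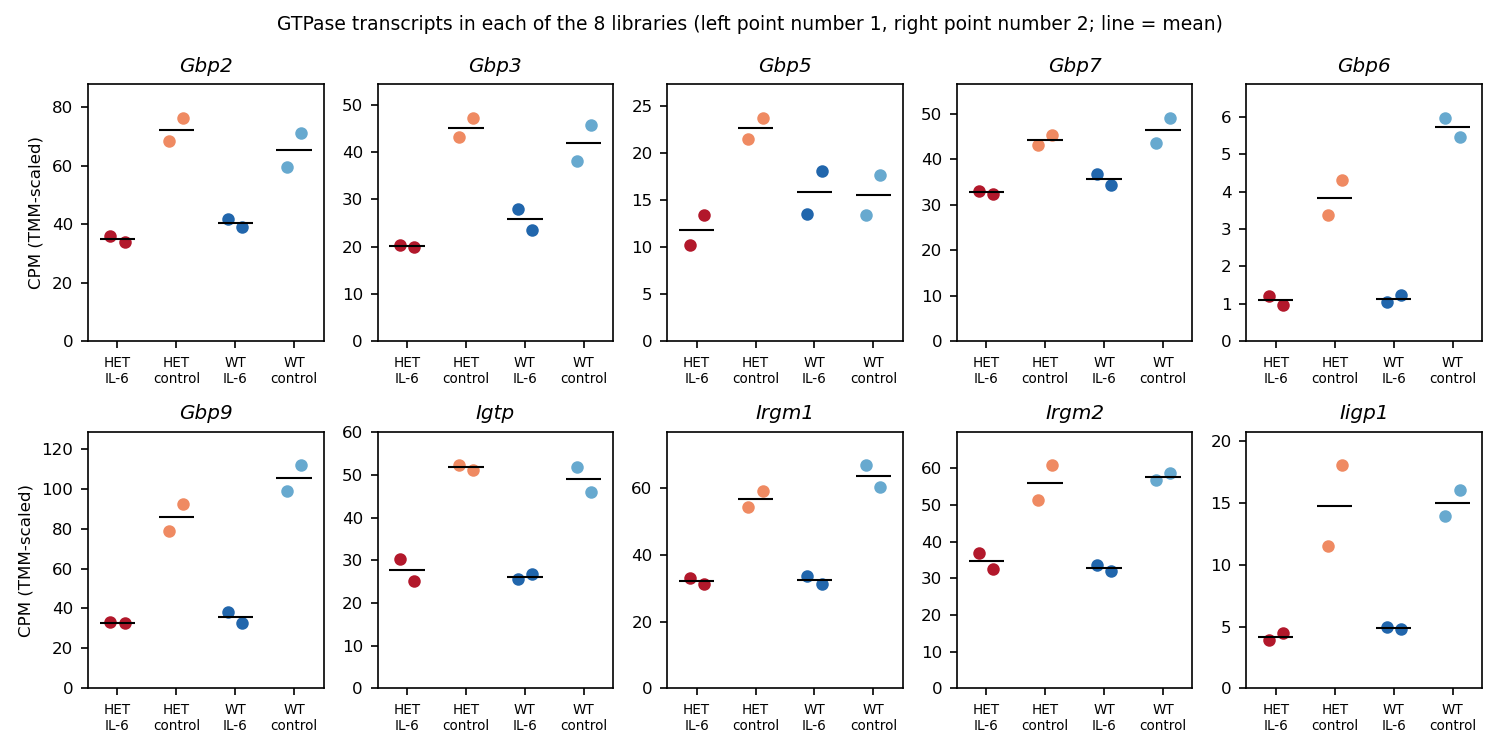
TMM-scaled CPM of each GTPase gene (y axis from 0, own scale per gene) in HET IL-6, HET control, WT IL-6 and WT control; points are the 2 libraries of a group and the line is their mean. IL-6 libraries lie below control libraries of their genotype in each panel except Gbp5 in WT.

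The total count was 50137897 in HET IL-6 library 2 and 18926641 to 24881197 in the other 7 libraries, and 3 counts correspond to 0.0598 to 0.159 CPM. Dnmt3a, the gene of the genotype label, was at 140.1 and 213 CPM in HET IL-6, 166 and 248 CPM in HET control, 175 and 183 CPM in WT IL-6 and 275 and 244 CPM in WT control. It did not pass edgeR's test between HET and WT in control (-0.32 ± 0.25, adjusted p = 0.506) or after IL-6 (-0.02 ± 0.25, adjusted p = 0.972), so the transcript does not check the genotype label. Macrophage markers (10 of 10 detected) summed to 12401 to 12763 CPM in HET IL-6, 13085 to 13333 in HET control, 13538 to 14458 in WT IL-6 and 12170 to 12783 in WT control. Their part in the results was not tested. T and NK cell markers, known sources of interferon-gamma, summed to at most 0.207 CPM in any library, with Cd3e, Cd3g, Ncr1, Prf1 and Gzma at 0 counts throughout. Endothelial markers, nearly all of them counts of Vwf and Kdr and with Emcn at 0, summed to 139 to 140.4 CPM in HET IL-6 and 88.5 to 98.4 CPM in HET control. In WT they summed to 99.6 to 101 CPM with IL-6 and 114 to 143 CPM in control, so the sum moved in opposite directions by genotype. Not every marker followed the sum. Kdr was higher with IL-6 in both genotypes, with means of 52.7 against 26.2 CPM in HET and 50.8 against 31.4 CPM in WT. Cdh5 moved against the sum, with 1.64 against 1.99 CPM in HET and 2.19 against 1.10 CPM in WT. The dendritic cell list, nearly all from Bst2, itself an interferon-induced gene, was lower with IL-6 as the members were, at 245 to 261 CPM in HET IL-6, 321 to 377 CPM in HET control, 193 to 202 CPM in WT IL-6 and 335 to 366 CPM in WT control. The part of both lists in the results was not tested. B cell, neutrophil and stromal cell lists summed to at most 10.4 CPM.

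The guanylate-binding genes of chromosome 3 lie side by side in mm10, Gbp5 at 142493978 to 142522344, Gbp7 at 142530342 to 142550149, Gbp3 at 142560026 to 142573209 and Gbp2 at 142620602 to 142638008, all on the plus strand. Gbp2, which coats the vacuole of Toxoplasma and acts on cytosolic bacteria upstream of the AIM2 inflammasome, had 35.9 and 33.8 CPM in HET IL-6 libraries, against 68.3 and 76.3 CPM in HET control libraries. In WT it had 41.7 and 39.1 CPM with IL-6, against 59.4 and 71.0 CPM in control. The 2 HET IL-6 libraries were the lowest and the 4 control libraries the highest. By edgeR Gbp2 fell with IL-6, with a log2 fold change of -1.05 ± 0.10 in HET (adjusted p = 4.74e-06; ± is the standard error throughout for log2 values) and -0.69 ± 0.10 in WT (adjusted p = 0.000247).

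Gbp3, another GBP recruited to the Toxoplasma vacuole, had 20.3 and 19.9 CPM in HET IL-6, against 43.2 and 47.3 CPM in HET control. In WT the values were 28.0 and 23.6 CPM with IL-6, against 38.1 and 45.8 CPM in control. As for Gbp2, no IL-6 library reached a control library, and both HET IL-6 libraries were below both WT IL-6 libraries. The log2 fold change by edgeR was -1.17 ± 0.11 in HET (adjusted p = 4.63e-06) and -0.70 ± 0.11 in WT (adjusted p = 0.000502).

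Gbp7, which is known to take part in the delivery of oxidase and autophagy proteins to bacterial vacuoles, moved least of the members called in both genotypes. It had 33.1 and 32.3 CPM in HET IL-6, against 43.0 and 45.3 CPM in HET control, and 36.8 and 34.4 CPM in WT IL-6, against 43.5 and 49.0 CPM in WT control. The groups did not overlap, but the gap was small. It fell in both, at -0.44 ± 0.09 in HET (edgeR adjusted p = 0.00345) and -0.38 ± 0.09 in WT (edgeR adjusted p = 0.00957). The HET call was lost without HET IL-6 library 2 (adjusted p = 0.0541) and the WT call without WT IL-6 library 2 (adjusted p = 0.0623), and the HET call also without both HET libraries numbered 1 (adjusted p = 0.128) or 2 (adjusted p = 0.257) and the WT call without both WT libraries numbered 2 (adjusted p = 0.068). Another gene, Gm43802, overlaps 11.3% of its exon bases on the same strand, so its value is uncertain to that extent.

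Gbp5, a prenylated GBP known for promoting assembly of the NLRP3 inflammasome, stood apart from the other members. It had 10.2 and 13.4 CPM in HET IL-6, against 21.5 and 23.7 CPM in HET control, and 13.5 and 18.1 CPM in WT IL-6, against 13.4 and 17.6 CPM in WT control. The 2 HET control libraries were above all others, and the WT libraries with and without IL-6 covered the same range. In HET it fell by 0.92 ± 0.16 (edgeR adjusted p = 0.0012). In WT the log2 fold change was 0.02 ± 0.17 (95% interval -0.34 to 0.38, edgeR adjusted p = 0.956), and -0.02 when libraries were scaled to total counts. Averaged over genotype it fell by 0.45 ± 0.12 (edgeR adjusted p = 0.0118), a call lost without HET IL-6 library 1 (adjusted p = 0.0694), WT IL-6 library 1 (adjusted p = 0.0511) or both HET libraries numbered 1 (adjusted p = 0.0604).

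Gbp9 (105077630 to 105139539) and Gbp6 (105270702 to 105293698) belong to the GBP cluster on chromosome 5, minus strand, and both proteins join the Toxoplasma vacuole. Gbp9 had 33.2 and 32.5 CPM in HET IL-6, against 79.0 and 92.5 CPM in HET control, and 38.5 and 32.9 CPM in WT IL-6, against 98.6 and 112 CPM in WT control. After IL-6 the genotypes overlapped, whereas in control both HET libraries were below both WT libraries. The log2 fold change of Gbp9 was -1.39 ± 0.10 in HET (edgeR adjusted p = 5.92e-07) and -1.56 ± 0.11 in WT (edgeR adjusted p = 2.17e-07), that is to 38.3% and 34.0% of control. Gbp6, the lowest of the 10 genes, had 1.20 and 0.972 CPM in HET IL-6, against 3.37 and 4.31 CPM in HET control, and 1.03 and 1.23 CPM in WT IL-6, against 5.98 and 5.47 CPM in WT control. Gbp6 had log2 fold changes of -1.85 ± 0.23 in HET (edgeR adjusted p = 6.56e-05) and -2.34 ± 0.24 in WT (edgeR adjusted p = 1.01e-05), the largest fall of any member in either genotype. Gm43302 overlaps 29.0% of the exon bases of Gbp6 and was itself counted 0 times in all 8 libraries, and the GBPs of this cluster are close paralogs that can share reads, so both values are uncertain.

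The regulators Irgm1 (48861968 to 48871683, minus strand), Igtp (58199556 to 58207591, plus strand) and Irgm2 (58199618 to 58222782, plus strand) are on chromosome 11. Irgm1, a regulator found on Golgi and lysosomal membranes, had 32.9 and 31.3 CPM in HET IL-6, against 54.3 and 59.2 CPM in HET control, and 33.5 and 31.2 CPM in WT IL-6, against 66.8 and 60.5 CPM in WT control. The IL-6 libraries of both genotypes overlapped almost fully. Irgm1 had log2 fold changes of -0.82 ± 0.09 in HET (edgeR adjusted p = 1.91e-05) and -0.97 ± 0.09 in WT (edgeR adjusted p = 4.6e-06).

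Igtp, also called Irgm3 and found on the endoplasmic reticulum, had 30.3 and 25.3 CPM in HET IL-6, against 52.3 and 51.3 CPM in HET control. In WT it had 25.6 and 26.7 CPM with IL-6, against 51.9 and 46.1 CPM in control. Its log2 fold change was -0.91 ± 0.10 in HET (edgeR adjusted p = 2.21e-05) and -0.91 ± 0.10 in WT (edgeR adjusted p = 2.82e-05), to 53.3% of control in each. Irgm2, which is known to restrain the caspase-11 response to bacterial lipopolysaccharide, had 36.8 and 32.5 CPM in HET IL-6, against 51.3 and 60.8 CPM in HET control, and 33.5 and 31.9 CPM in WT IL-6, against 56.7 and 58.6 CPM in WT control. All IL-6 libraries were below all control libraries for both genes. Irgm2 fell in both, at -0.70 ± 0.10 in HET (edgeR adjusted p = 0.000184) and -0.82 ± 0.10 in WT (edgeR adjusted p = 5.81e-05). Its HET call was lost without both HET libraries numbered 2 (-0.48, adjusted p = 0.0966). The models of these neighbours share exon sequence (8.01% of Igtp and 4.39% of Irgm2 exon bases), so part of their reads cannot be assigned with certainty.

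Iigp1, also called Irga6, is on chromosome 18 and was the only effector IRG among the members. It had 3.90 and 4.50 CPM in HET IL-6, against 11.5 and 18.1 CPM in HET control, and 5.00 and 4.77 CPM in WT IL-6, against 13.9 and 16.1 CPM in WT control. The HET control libraries differed more from each other than the libraries of any other group. Its log2 fold change of -1.80 ± 0.19 in HET (edgeR adjusted p = 1.21e-05) and -1.61 ± 0.20 in WT (edgeR adjusted p = 4.79e-05) left 28.7% and 32.7% of control.

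**Figure D3:**
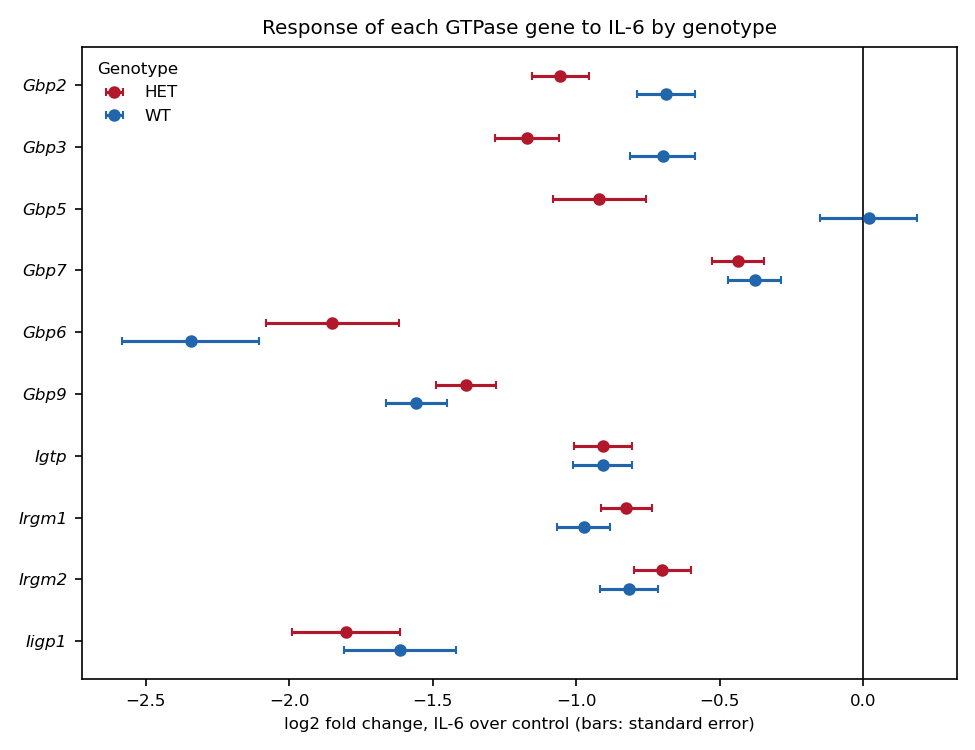
Log2 fold change of IL-6 over control for each GTPase gene (x axis), in HET (red, upper) and WT (blue, lower), with bars for the standard error from edgeR's model over 8 libraries. The largest falls are those of Gbp6 and Iigp1 (-2.34 to -1.61), the smallest called falls those of Gbp7 (-0.44 and -0.38), and Gbp5 in WT lies at 0.02.

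Levels of different genes were set side by side per length, as TMM-scaled CPM per kilobase of exon (RPKM, mean ± SD of 2 libraries). In HET control the order was Gbp2 (28.7 ± 2.24), Igtp (25.6 ± 0.361), Gbp9 (16.6 ± 1.84), Irgm2 (15.2 ± 1.82), Gbp3 (13.9 ± 0.878), Irgm1 (9.76 ± 0.592), Gbp7 (7.87 ± 0.285), Gbp5 (3.40 ± 0.234), Iigp1 (2.54 ± 0.798) and Gbp6 (0.645 ± 0.112). Here the libraries of Gbp9, Irgm2 and Gbp3 overlapped from 1 gene to the next. In WT control the order was the same but for Iigp1 (2.58 ± 0.258) and Gbp5 (2.33 ± 0.450), whose libraries overlapped, and Gbp2 (25.9 ± 3.25) was not apart from Igtp (24.2 ± 2.01). After IL-6 the level of Gbp9 was below that of Irgm2 in both genotypes, at 6.35 ± 0.0942 against 9.38 ± 0.819 in HET and at 6.89 ± 0.766 against 8.87 ± 0.306 in WT. Gbp6 was the lowest in all 4 groups.

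Between the genotypes, the members differed little compared with the IL-6 response. In control 0 of 10 members were called by edgeR, where 2.81% of all tested genes were called higher and 2.05% lower in HET. At an unadjusted p under 0.05, Gbp5 was higher (0.55 ± 0.16, adjusted p = 0.0717) and Gbp6 (-0.58 ± 0.20, adjusted p = 0.117) and Gbp9 (-0.29 ± 0.10, adjusted p = 0.113) were lower. DESeq2 called 1 member in control, Gbp5 (0.54, adjusted p = 0.0428). Both HET control libraries were below both WT control libraries for Gbp6, Gbp9 and Irgm1, 3 of 10 members, as they were for 25.2% of tested genes.

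After IL-6, edgeR called 1 member between the genotypes, Gbp3, lower in HET (-0.36 ± 0.11, adjusted p = 0.0360), where 8.8% of all genes were called lower and 13.2% higher. The call was lost without any HET library and without WT IL-6 library 1, with adjusted p of 0.121 and 0.164 without HET IL-6 library 1 or 2, 0.0537 and 0.0536 without HET control library 1 or 2, and 0.353 without WT IL-6 library 1, where the value was -0.23. HET libraries were below WT libraries without overlap for Gbp2, Gbp3, Gbp5, Gbp7 and Iigp1, 5 of 10 members, and for 32.3% of tested genes. Averaged over treatment edgeR called 0 of 10 members (7.99% of all genes lower and 11.9% higher). Gbp9 alone had an unadjusted p under 0.05 there, and DESeq2 called it.

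The test of whether the IL-6 response differed between the genotypes passed for Gbp5 only, 1 of 10 members, where 3.6% of all tested genes were called with a more negative and 4.52% with a more positive difference. The difference, HET minus WT, was -0.94 ± 0.23 (95% interval -1.44 to -0.43, edgeR adjusted p = 0.0263; DESeq2 -0.96, adjusted p = 0.00498). It was -1.19 to -0.72 with each library left out in turn. The call was lost without HET IL-6 library 1 (-0.79, adjusted p = 0.108), HET control library 1 (-1.01, adjusted p = 0.0718), HET control library 2 (-0.87, adjusted p = 0.0841), WT IL-6 library 2 (-0.72, adjusted p = 0.0778) or WT control library 1 (-0.75, adjusted p = 0.0925). The chromosome 3 neighbours Gbp3 (-0.47 ± 0.16, adjusted p = 0.0845) and Gbp2 (-0.37 ± 0.14, adjusted p = 0.138) had an unadjusted p under 0.05 in edgeR but did not pass. For the IRG genes the 95% interval of the difference was -0.32 to 0.32 for Igtp, -0.13 to 0.42 for Irgm1, -0.19 to 0.42 for Irgm2 and -0.77 to 0.40 for Iigp1. The difference for Gbp7 lay between -0.33 and 0.22, that for Gbp9 between -0.14 and 0.49, and that for Gbp6 between -0.24 and 1.23. The median difference of the members was -0.03, and that of all tested genes 0.02.

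**Figure D4:**
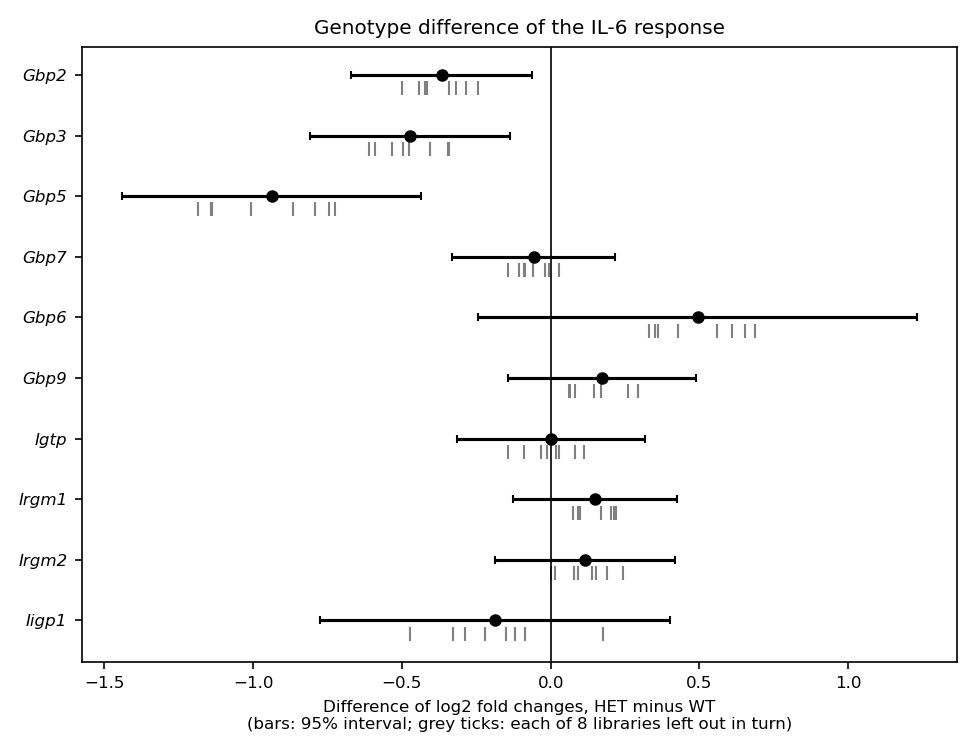
Difference of the log2 fold change of IL-6 over control, HET minus WT (x axis), for each GTPase gene, with bars for the 95% interval and grey ticks for the value with each of the 8 libraries left out in turn. Gbp5 lies at -0.94, and the intervals of Gbp5, Gbp3 and Gbp2 do not include 0.

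Further genes of both families, in a list of 18, were measured in the same libraries, and 12 of them passed the filter. Of these 12, edgeR called 10 lower with IL-6 in HET, 11 in WT and 11 averaged over genotype. The shares of all tested genes called lower were 9.41%, 10.4% and 12.8%. Averaged over genotype the median of the 12 was -1.03. Gbp4 of the chromosome 5 cluster fell (-2.37 ± 0.25), and so did Tgtp2, an effector IRG also called Irgb6 (-1.65 ± 0.30) (edgeR adjusted p = 6.92e-06 and 0.00102). Gm12250, also called Irgb10 and known to act on bacterial membranes, fell by 0.94 ± 0.08. So did Ifi47 (-1.13 ± 0.16), Gm4951 (-1.31 ± 0.12), F830016B08Rik (-1.24 ± 0.18), Gm5431 (-0.89 ± 0.07), the very large inducible GTPase Gvin1 (-0.72 ± 0.12), 9930111J21Rik1 (-0.58 ± 0.11) and 9930111J21Rik2 (-0.57 ± 0.07), with an edgeR adjusted p of at most 0.0018. The exception was Irgq, an atypical family member, at 0.17 ± 0.08 (edgeR adjusted p = 0.159). Gbp2b, Gbp10, Gbp11, Tgtp1, Gm4841 and Irgc1 were too low to test, at no more than 0.478 CPM in any library.

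Gbp8, a neighbour of Gbp9, had 1.74 and 1.05 CPM in HET IL-6, against 2.58 and 2.68 CPM in HET control, and 0.662 and 0.590 CPM in WT IL-6, against 3.94 and 4.02 CPM in WT control. The WT values were thus the lowest with IL-6 and the highest without it. Its log2 fold change was -0.98 ± 0.26 in HET (edgeR adjusted p = 0.0181) and -2.65 ± 0.30 in WT (edgeR adjusted p = 2.82e-05), a difference of 1.68 ± 0.41 (edgeR adjusted p = 0.0240), opposite in sign to that of Gbp5. Its exons overlap those of Gbp9 and Gbp4 by 1.77%.

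Upstream of the GTPases, genes of interferon receptors and their signalling moved in both directions. Averaged over genotype edgeR called 3 of 9 higher, where 10.8% of all tested genes were, and 3 of 9 lower, where 12.8% were. In HET alone 1 of 9 was called higher and 0 lower, beside 1217 higher and 1291 lower of all 13721 tested genes. In WT alone 4 of 9 were called higher and 3 lower, beside 1086 higher and 1429 lower of all tested genes. Stat2 had -0.14 ± 0.10 in HET (edgeR adjusted p = 0.414) and fell in WT by 0.77 ± 0.10 (edgeR adjusted p = 0.000115), and this difference passed the test (0.63 ± 0.14, adjusted p = 0.0167). Averaged over genotype Irf9 (-0.28 ± 0.06) and Tyk2 (-0.26 ± 0.06) fell, while Ifngr2, a chain of the interferon-gamma receptor, rose by 0.33 ± 0.06, Ifnar1 by 0.26 ± 0.05 and Jak1 by 0.21 ± 0.05 (largest edgeR adjusted p = 0.00892). Ifngr1 (-0.02 ± 0.05), Ifnar2 (0.09 ± 0.06) and Jak2 (0.16 ± 0.07) did not pass.

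Of 9 interferon regulatory factors and co-activators, 1 rose and 3 fell in the averaged comparison. Of all tested genes 10.8% rose and 12.8% fell there, so the count of rises was near the general share. Irf7, the factor of late type I interferon responses, fell by 1.31 ± 0.08 (edgeR adjusted p = 2.3e-08), with 210 and 193 CPM in HET IL-6, against 371 and 449 CPM in HET control, and 141 and 121 CPM in WT IL-6, against 426 and 362 CPM in WT control. The log2 fold change of Irf7 was -1.03 ± 0.11 in HET and -1.59 ± 0.11 in WT, and the difference passed (0.56 ± 0.16, edgeR adjusted p = 0.0409). Irf5 (-0.21 ± 0.05) and Nlrc5 (-0.20 ± 0.06) fell, and Irf2 rose by 0.30 ± 0.06 (largest edgeR adjusted p = 0.0304). Irf1, which drives GBP genes in mice, had 341 and 423 CPM in HET IL-6, against 405 and 543 CPM in HET control, and 336 and 459 CPM in WT IL-6, against 295 and 319 CPM in WT control. Its log2 fold change was -0.31 ± 0.17 in HET (edgeR adjusted p = 0.258) and 0.37 ± 0.17 in WT (edgeR adjusted p = 0.173), and the difference did not pass (-0.68 ± 0.24, adjusted p = 0.121). Ciita, the co-activator of MHC class II genes, fell in HET by 0.78 ± 0.22 and had 0.46 ± 0.24 in WT, a difference of -1.23 ± 0.33 (edgeR adjusted p = 0.0343). Irf8 rose in HET (0.36 ± 0.09, edgeR adjusted p = 0.0145) and Irf3 did so by 0.32 ± 0.10 (adjusted p = 0.0394), and both were higher in HET than in WT after IL-6, as Irf7 and Nlrc5 were, 4 of 9 genes in all, where 13.2% of all tested genes were. Averaged over genotype Irf8 and Irf3 had 0.14 ± 0.07 and 0.21 ± 0.07 without passing. Batf2 had -0.17 ± 0.11.

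**Figure D5:**
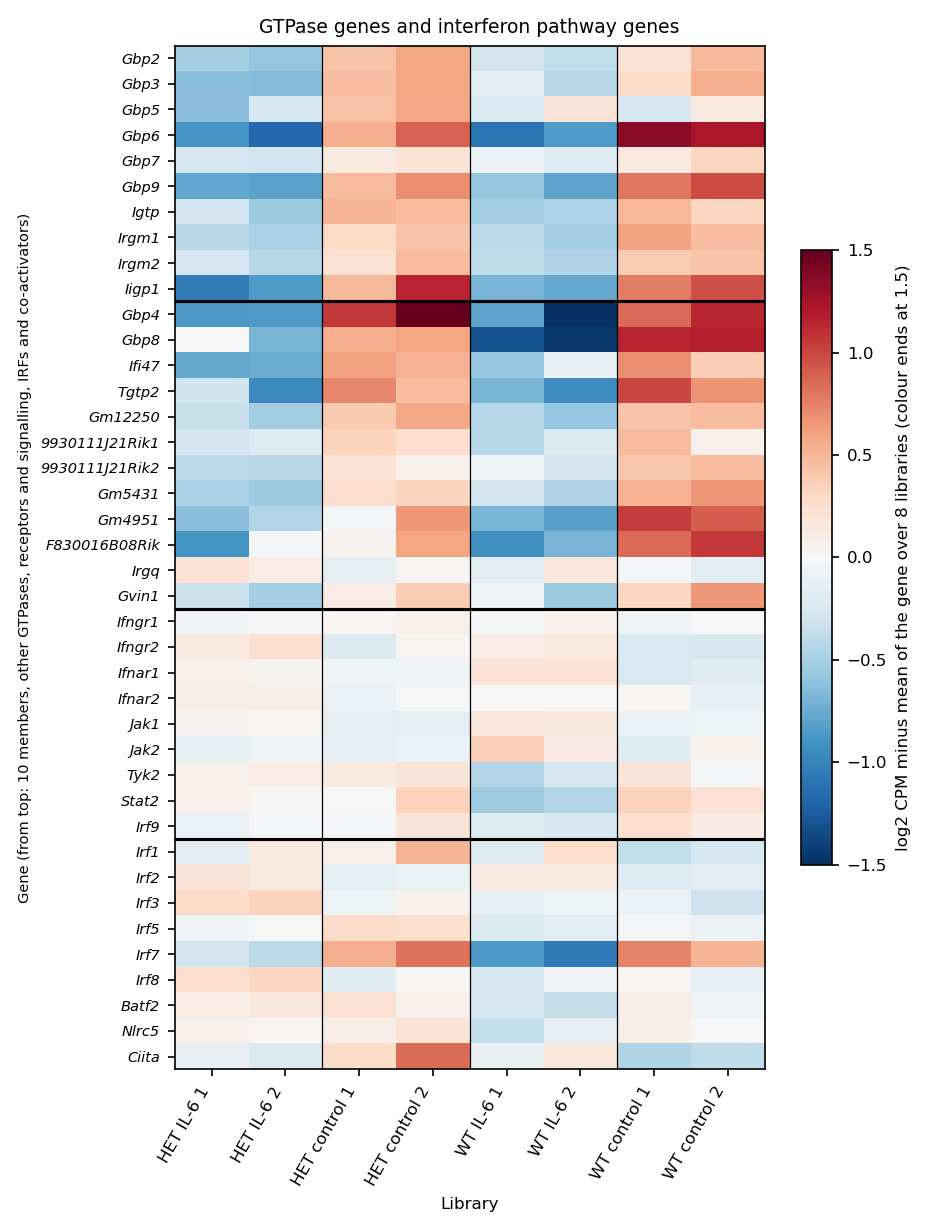
Log2 CPM of each gene minus its mean over the 8 libraries (colour, ending at 1.5 in either direction), with libraries in columns and genes in rows, for the 10 GTPase genes, 12 other tested GTPases, 9 receptor and signalling genes and 9 regulatory factors and co-activators. Most GTPase genes and Irf7 are lower in the IL-6 columns than in the control columns of their genotype, other than Gbp5 in WT and Irgq.

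Among feedback inhibitors of interferon signalling, Socs1 (-1.31 ± 0.17) and Usp18 (-1.08 ± 0.08) fell, Ptpn1 rose by 0.61 ± 0.05 (largest edgeR adjusted p = 4.5e-05, averaged over genotype), and the other 4 of 7 did not pass. Of all tested genes 12.8% fell and 10.8% rose in that comparison. Interferon ligand transcripts were near or below detection. Ifng was counted 0 times in all 8 libraries, for which 3 counts would be at most 0.159 CPM, and Ifnb1 did not exceed 0.309 CPM. Il18, a cytokine that elicits interferon-gamma, fell by 0.68 ± 0.10 (edgeR adjusted p = 0.000156), and Il12b had 0.94 ± 0.37 without passing (edgeR adjusted p = 0.0813). Of 12 other tested interferon-gamma targets 6 fell and 3 rose averaged over genotype, where 12.8% of all tested genes fell and 10.8% rose. The lowest log2 fold change was that of the chemokine gene Cxcl9 (-2.40 ± 0.51, edgeR adjusted p = 0.00304), which had 0.166 and 0.0608 CPM in HET IL-6, against 1.01 and 0.711 CPM in HET control, and 0.289 and 0 CPM in WT IL-6, against 0.637 and 0.441 CPM in WT control, close to the level of 3 counts. Cxcl10, a chemokine for T cells, had 37.1 and 36.7 CPM in HET IL-6, against 121 and 122 CPM in HET control, and 43.8 and 42.2 CPM in WT IL-6, against 66.4 and 81.4 CPM in WT control. Its log2 fold change was -1.72 ± 0.10 in HET and -0.78 ± 0.10 in WT, both called, a difference of -0.94 ± 0.14 (edgeR adjusted p = 0.00101). The Fc receptor gene Fcgr1 rose by 0.60 ± 0.06 and the immunoproteasome genes Psmb8 (-0.48 ± 0.08) and Psmb10 (-0.46 ± 0.06) fell, with an edgeR adjusted p of at most 0.000373.

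Of 12 genes for inflammasomes and cell death, through which GBPs and IRGs act, 5 fell and 2 rose averaged over genotype. In the same comparison 12.8% of all tested genes fell and 10.8% rose. Zbp1, a sensor of nucleic acids in the Z form, fell by 0.94 ± 0.08, as did Nlrp3 (-0.48 ± 0.06) and Aim2, the sensor of cytosolic DNA (-0.40 ± 0.07), while Ripk3, a kinase of necroptosis, rose by 0.62 ± 0.07 (largest edgeR adjusted p = 0.000417). The median of the 12 genes was -0.14, beside -0.01 for all tested genes. Casp4, the mouse caspase-11 gene, had 0.14 ± 0.08 (edgeR adjusted p = 0.238).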

How the data were processed

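The authors deposited raw gene counts of 8 libraries as 1 table with exon length per gene, per the file headers. The submitters' processing notes list STAR 2.7.9a, featureCounts 1.6.2, fastp 0.12.4 and SAMtools 1.9, with the build mm10. Neither the annotation nor the strand setting of the counting is given in the sources used here, so reads of overlapping genes and close paralogs cannot be told apart. Gene positions are those deposited with the counts, and all 10 members match GENCODE M21 in symbol and coordinates.

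Counts were filtered with filterByExpr (minimum count 10), scaled by TMM and tested on all 8 libraries with 1 mean per group, by edgeR 4.0.16 in R 4.3.3 (quasi-likelihood F test, robust, 2-sided, 4 residual degrees of freedom, Benjamini-Hochberg over 13721 genes). The procedure was tested on simulated data. Alternatives were DESeq2 1.42.0, other scalings, no filter, left-out libraries and a block. Members and lists were chosen with earlier results of these data known. The text names the 10 members, Dnmt3a, the genes of 3 lists (other GTPases, receptors and signalling, regulatory factors) but for 1 gene of the signalling list that is not reported here, up to 4 genes with the smallest p and the extremes of other lists (cell type markers as sums), and 6 genes most like the members. Lgals3, Casp4, Ifng, Ifnb1 and untested genes outside that rule were named after their values were seen.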

Additional observations from a re-analysis of the deposited data

Results flagged for a closer look

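The IL-6 response of Gbp5 differed between the genotypes by the test of the difference itself: -0.94 on the log2 scale, HET minus WT (edgeR adjusted p = 0.0263), with a log2 fold change of -0.92 in HET and 0.02 in WT. Both HET IL-6 libraries were below both HET control libraries, while the WT libraries of the treatments overlapped. The call was lost without any of 5 of the 8 libraries, as given with the result. Without both HET libraries numbered 1 the difference was -0.84. Of all tested genes, 3.6% were called with a more negative and 4.52% with a more positive difference.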

How the results depend on the processing

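The counts of members lowered by IL-6 ran from 8 to 10 in HET, 8 to 9 in WT and 9 to 10 averaged over genotype across all alternatives. Counts between genotypes, from 0 to 3, were less stable. After IL-6, 2 members were lower without the filter, where 12.3% of all genes were called in either direction, and 0 to 2 with libraries left out, where 6.11% to 35.9% were; the 2 arose at 35.9%, without both WT libraries numbered 2. In control, 1 was higher without the filter, with DESeq2 and with the block, and 0 to 1 higher and 0 to 1 lower with libraries left out (0.232% to 20.8% of all genes); averaged over treatment 1 was lower without the filter and with DESeq2, and 0 to 1 with libraries left out (3.08% to 31.8% of all genes). For the difference of responses 2 were lower without the filter (5.55% of all genes) and 0 to 3 with libraries left out (1.32% to 24.5%), the 3 at 14.9% without WT control library 2 and at 24.5% without both WT libraries numbered 2. Signs turned only for values that were not called: Gbp5 in WT was -0.019 with total counts and -0.20 to 0.22 with libraries left out, and without the filter Irgm1 after IL-6 was 0.0031 and the difference for Igtp 0.013. With libraries left out, HET against WT after IL-6 was -0.22 to 0.098 for Gbp6, -0.060 to 0.21 for Igtp, -0.072 to 0.037 for Irgm1 and -0.023 to 0.17 for Irgm2; in control it was -0.018 to 0.25 for Gbp3, -0.15 to 0.023 for Gbp7, -0.0025 to 0.17 for Igtp, -0.38 to 0.27 for Iigp1 and -0.17 to 0.079 for Irgm2; and the difference of responses was -0.20 to 0.077 for Gbp7, -0.034 to 0.38 for Gbp9, -0.14 to 0.12 for Igtp, -0.47 to 0.18 for Iigp1 and -0.084 to 0.34 for Irgm2. The causes were not tested. Log2 differences between library 1 and library 2 of a group correlated at 0.15 in HET and -0.11 in WT between treatments. Between genotypes the correlations were -0.06 in control and 0.02 after IL-6. Low correlations over all tested genes cannot exclude that same-numbered libraries shared a mouse or culture, so pairing was not settled. For the IL-6 comparisons and the difference of responses, the replicate block was an effect of library number within each genotype. With it the members lowered by IL-6 were 10 in HET, 9 in WT and 10 averaged, and Gbp5 differed by -0.96 (edgeR adjusted p = 0.0109). For HET against WT the block was 1 effect of library number shared by both genotypes. With that block Gbp3 after IL-6 was not called (edgeR adjusted p = 0.0588) and Gbp5 after IL-6 was called (-0.41, edgeR adjusted p = 0.0338). With WT numbers crossed, chosen after seeing the data, the block gave 9 lower in WT, 9 averaged and 2 for the difference, where 32.4%, 37.5% and 22.7% of all genes were called in either direction. Where leaving out a library left 1 in a group, that library was assumed to vary like the other groups. Of the members, Gbp6 and Iigp1, with the lowest CPM, had the widest intervals of the difference of responses.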

Other observations

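Genes that work beside the GTPases at vacuoles were mixed. Of 9 tested ubiquitin ligases and adaptors, 3 fell and 2 rose with IL-6 averaged over genotype, where 12.8% of all tested genes fell and 10.8% rose. Rnf213, a ubiquitin ligase that coats bacteria, fell by 0.86 ± 0.05, as did Trafd1 (-0.74 ± 0.06) and Trim21 (-0.56 ± 0.06), while the autophagy receptor gene Nbr1 rose by 0.32 ± 0.06 (largest edgeR adjusted p = 0.000902). Lgals3, whose lectin marks broken vacuoles, rose in HET (0.40 ± 0.08) and fell in WT (-0.48 ± 0.08), a difference of 0.88 ± 0.12 (edgeR adjusted p = 0.000579); Lgals3 was named after its values were seen. IRGs and GBPs use the conjugation of ATG8 proteins to reach vacuoles. Of 13 genes for it, 2 rose averaged over genotype, Atg3 (0.21 ± 0.07) and Atg5 (0.20 ± 0.07). In that comparison 1 fell, Gabarapl1 (-0.19 ± 0.06), and the edgeR adjusted p was at most 0.0494 for each. The share of falls was no larger than that of all genes, and the share of rises was close to it. By genotype, 0 of the 13 were called in HET and 2 were called lower in WT, where 10.4% of all tested genes were. For the difference of responses 1 was called positive, where 4.52% of all tested genes were. Protein prenylation anchors Gbp2 and Gbp5 to membranes. Of 10 genes for it, 1 rose averaged over genotype, Pggt1b, by 0.21 ± 0.06 (edgeR adjusted p = 0.0204). In that comparison 0 fell, again near or below the shares of all genes. Fdps was lowest there, at -0.38 ± 0.16 (edgeR adjusted p = 0.126). Its group means moved in opposite directions by genotype. With IL-6 against control they were 26.0 against 18.4 CPM in HET and 11.6 against 27.2 CPM in WT. In WT 1 of the 10 genes was called lower, where 10.4% of all tested genes were. For the difference of responses 1 was called positive, where 4.52% of all tested genes were.

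Among 9257 genes other than the members with a mean of at least 5 CPM, leaving out predicted genes named Gm or Rik or by a clone accession, those whose log2 CPM followed the mean standardised profile of the members most closely over the 8 libraries were Ddx58 (Pearson r = 0.993), Parp9 (0.993), Rasgef1b (0.992), Ifit2 (0.992), Ifit3b (0.992) and Ifit3 (0.992). The points share their libraries and the split by IL-6, and r is given as a measure of likeness only. Ddx58, which encodes the RNA sensor RIG-I, had log2 fold changes of -0.84 ± 0.08 in HET and -0.79 ± 0.08 in WT. Of the members, Gbp5 followed the mean of the other 9 least (r = 0.603), and the others had r from 0.945 to 0.990.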
